A study of Mus musculus with 6 samples.

Results

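The genes described here are 9 genes of the DNA methylation machinery, chosen by symbol from the 24421 genes of the count table of regulatory T (Treg) cells: Dnmt1, Dnmt3a, Dnmt3b, Tet1, Tet2, Tet3, Uhrf1, Uhrf2 and Mbd2. All 9 were found, and all 9 passed the filter on low counts (CPM, the read count relative to library size, above 1 in 3 or more libraries), which 11658 genes passed. The libraries were bulk RNA-seq of CD4+YFP+ Treg cells sorted from the spleens of female C57BL/6 mice, 8 to 11 weeks old, with 3 libraries from Foxp3Cre mice (WT) and 3 from Foxp3Cre miR-142fl/fl mice (KO), each group described as biological replicates. Both groups carry the fusion of Cre and yellow fluorescent protein (YFP) under the endogenous Foxp3 promoter, and only the KO group carries the floxed Mir142 alleles, which Cre removes in cells that express Foxp3. The cells were taken directly from these mice, so the absence of miR-142 in the cell and the state of the host animal cannot be told apart in this comparison.

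In mammals a methyl group is placed on cytosine, mostly where guanine follows. Dnmt3a and Dnmt3b set new marks. Dnmt1 copies them onto the new strand after replication, brought there by Uhrf1, which binds hemimethylated DNA. Tet1, Tet2 and Tet3 oxidise methylcytosine as the first step of its removal, and Mbd2 reads methylated DNA and brings in a repressive complex. In Treg cells this balance has been studied above all at Foxp3, whose conserved noncoding enhancer is demethylated in stable Treg cells and methylated in conventional T cells.

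Total counts ranged from 13883069 to 24042994 per library. Mir142 itself had 0 counts in all 6 libraries, and Mir142b, annotated on the opposite strand of the same locus, had 9.05, 4.14 and 5.81 CPM in WT replicates 1, 2 and 3 and between 0.342 and 0.389 CPM in the KO libraries. The Treg identity of the sort was visible in every library: all 8 Treg and CD4 T cell markers exceeded 1 CPM throughout, and Foxp3 lay between 536 and 749 CPM. KO replicate 1 stood apart. Its 8 monocyte and macrophage markers summed to 2380 CPM, against 68.6 CPM or less in the other libraries, its 7 neutrophil markers to 784 CPM, against 40.4 CPM or less, and its 6 B cell markers to 194 CPM, against 21.3 CPM or less. KO replicates 2 and 3 also lay above WT for the monocyte and macrophage markers (68.6 and 18.2 CPM, against 7.39 to 11.1 CPM). The neutrophil sum was also above WT (7.72 and 40.4 CPM, against 0.277 to 1.29 CPM). Most of it was Mpo (6.21 and 32.2 CPM) and Elane (1.21 and 4.31 CPM). Every other neutrophil marker had 1.23 CPM or less in KO replicates 2 and 3. For the B cell markers they lay below WT (7.72 and 11.8 CPM, against 14.4 to 21.3 CPM). In KO replicate 3, Vcam1 alone gave 11.2 of the 18.2 CPM of the monocyte and macrophage markers. There Lyz2 lay above WT (2.19 CPM, against 0.123 to 0.41 CPM) and Cd68 below it (3.08 CPM, against 4.31 to 6.97 CPM). Leaving out KO replicate 1 therefore does not bring all of these marker sums to the WT level. Whether the remaining marker transcripts come from other cells was not tested. Fold changes of the members for which KO replicate 1 was the highest or lowest KO library, the levels per kilobase and the S-phase genes are also given without it.

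Because the deleted microRNA acts through short matches in 3′ untranslated regions (UTRs), the sequences that bear on a possible direct effect are shown first. The mature strands of miR-142a (RefSeq, GRCm38.p6, chromosome 11, plus strand) are printed with the seed, bases 2 to 8, in capitals.
miR-142a-3p: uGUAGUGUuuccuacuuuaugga
miR-142a-5p: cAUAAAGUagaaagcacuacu
The 3p strand also occurs with its start moved by 1 base, which gives a neighbouring seed. The longest annotated 3′ UTR of each gene (GENCODE vM21, GRCm38) was searched on the transcript strand for the matches of the 3p seed (ACACTAC or CACTACA), of the shifted 3p seed (AACACTA or ACACTAA) and of the 5p seed (ACTTTAT or CTTTATA), each pair also as 1 joined match of 8 bases. Matches of the 3p seed and its shifted form can overlap in sequence. Below are 7 of the matches, each with 8 bases of UTR on either side and the matched letters in capitals.
Tet3, 3p seed, chr6:83365345-83365352, minus strand, exon 11: actttcacACACTACAtgtataac
Tet3, 5p seed, chr6:83367720-83367726, minus strand, exon 11: tttttaaaACTTTATccttgtat
Tet2, shifted 3p seed, chr3:133465026-133465032, minus strand, exon 11: catacctcAACACTAgctaggca
Tet2, shifted 3p seed, chr3:133463895-133463901, minus strand, exon 11: gcagtttgACACTAAgataatga
Tet1, 5p seed, chr10:62811250-62811256, minus strand, exon 11: attgacttCTTTATAtaccaaga
Dnmt3a, 3p seed, chr12:3911925-3911931, plus strand, exon 23: ttttatggCACTACAaggtcttc
Dnmt1, shifted 3p seed, chr9:20907421-20907427, minus strand, exon 39: catggctgACACTAAgctgtttg

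The 8-base match ACACTACA in Tet3 was the longest among the 9 genes, and Tet3 was also the gene that held matches of both strands. Mbd2 held a 7-base match of the 5p seed. No match was found in Dnmt3b, Uhrf1 or Uhrf2. Of the 10786 tested genes with an annotated 3′ UTR, 12.2% held a 3p match, 15.4% a match of the shifted 3p seed, 23.5% a 5p match and 37.4% at least 1 of these, against 6 of the 9 genes. The 3′ UTRs of Tet1 (7962 bases), Dnmt3a (6696 bases), Tet3 (5669 bases) and Tet2 (3058 bases) were long beside the median of 1186 bases. A match describes the letters and does not show binding.

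Levels were compared between genes per kilobase of annotated exon (RPKM over the union of exons). Mbd2 had the highest level in WT, at 69.0 ± 2.96 RPKM (SD, n = 3), followed by Dnmt1 at 29.2 ± 3.56 and Tet3 at 20.6 ± 0.635. Uhrf2 (14.7 ± 1.35) and Dnmt3a (14.1 ± 0.987) came next and overlapped in range. Tet2 reached 8.70 ± 0.484, Uhrf1 4.0 ± 0.619, Dnmt3b 2.71 ± 0.119 and Tet1 2.24 ± 0.421 RPKM, and the ranges of the last pair overlapped. Thus Dnmt1 and Dnmt3a were the main methyltransferase transcripts and Tet3 the main Tet transcript of these cells. In KO the order was the same except that Dnmt3a (13.0 ± 0.351 RPKM) passed Uhrf2 (11.5 ± 1.05 RPKM), and the ranges of Tet3 and Dnmt3a, of Uhrf2 and Tet2 and of Tet2 and Uhrf1 overlapped between neighbours. Without KO replicate 1 the KO order was unchanged and of these only Tet3 (13.0 to 18.9 RPKM) and Dnmt3a (12.7 to 13.4 RPKM) still overlapped. Uhrf1 then lay at 3.45 and 4.37 RPKM, below the lowest Tet2 value of 8.03, and Uhrf2 at 11.4 and 12.6, above the highest of 10.7. With the longest transcript as the length, Uhrf2 moved to the third place in both groups. Tet3 and Dnmt3a then overlapped in KO, with means of 22.2 ± 6.05 and 22.5 ± 0.603 RPKM, and their order rested on KO replicate 1, without which the means were 24.5 and 22.5 RPKM.

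**Figure D1:**
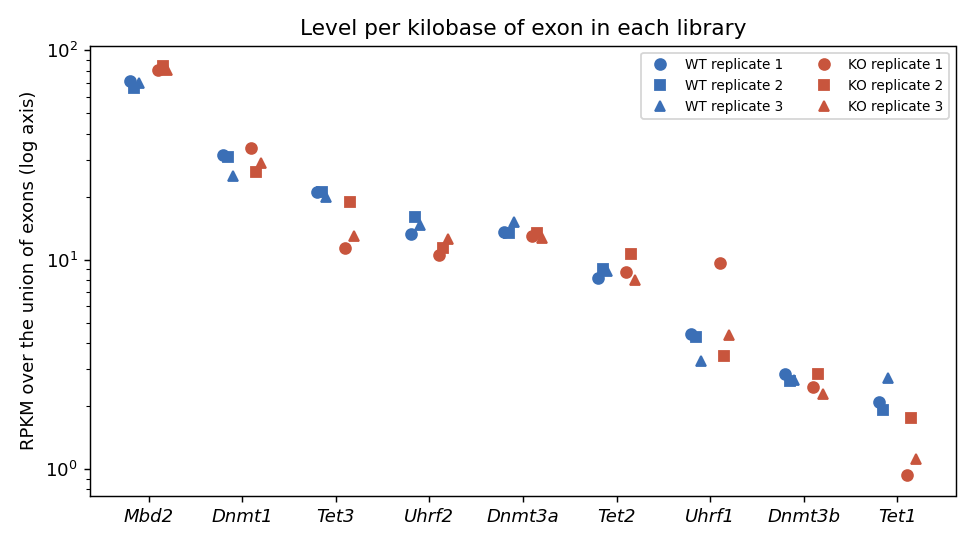
Level of each gene per kilobase of exon (RPKM, log axis) in the 3 WT (blue) and 3 KO (red) libraries, with genes ordered by their WT mean. Mbd2 lies highest, between 65.8 and 83.8 RPKM in all libraries, and Tet1 lowest on average, between 0.934 and 2.72 RPKM.

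To ask whether loss of miR-142 altered these transcripts, the groups were tested against each other in edgeR by the quasi-likelihood F test (QLF), with p-values adjusted over all 11658 genes (FDR). Tet1, Tet3 and Uhrf2 were lower in every KO library than in any WT library, and Mbd2 was higher, with differences between 1.18-fold and 1.77-fold. At an FDR under 0.05 none of the 9 genes was called, against 18.8% of all tested genes. At an unadjusted p under 0.05 the same 4 genes passed, against 34.8% of tested genes. DESeq2 called all 4 at an adjusted p under 0.05, 3 lower and 1 higher, against 24.6% of tested genes (14.3% higher and 10.3% lower). The 3 genes whose KO libraries all lay below WT compare with 18.8% of tested genes, the 1 gene above with 22.2%, and the 4 together with 41%. The median log2 fold change was -0.11 over the 9 genes and 0.02 over all genes tested.

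**Figure D2:**
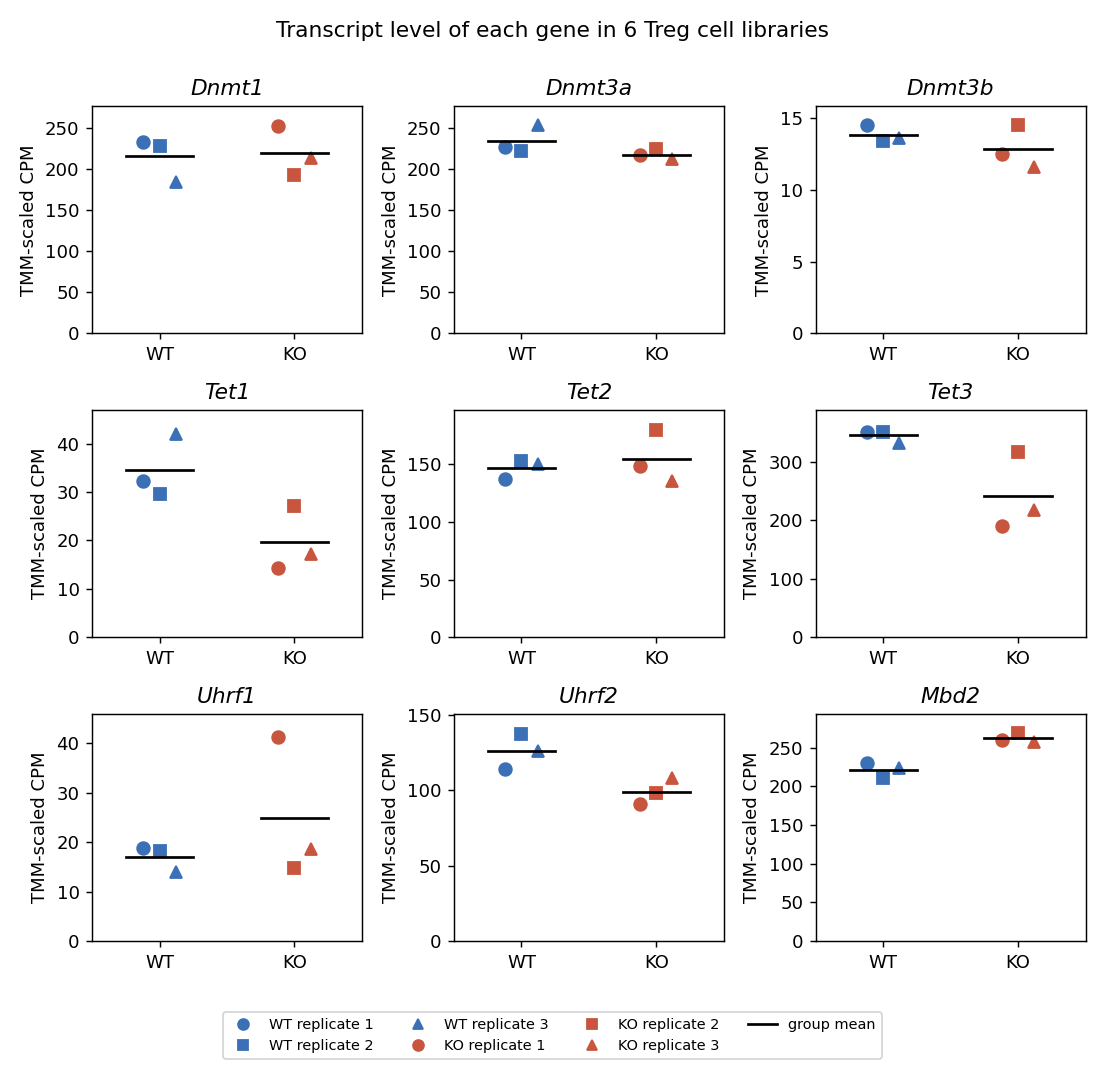
TMM-scaled CPM of the 9 genes in each library, with WT in blue, KO in red, a symbol for each replicate number and black lines at the group means. Tet1, Tet3 and Uhrf2 lie lower and Mbd2 higher in all KO libraries, while Uhrf1 is high in KO replicate 1 alone, at 41.2 CPM.

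Among the erasers, Tet3 had 351, 351 and 332 CPM in WT replicates 1, 2 and 3 and 190, 316 and 218 CPM in KO replicates 1, 2 and 3. CPM values here and below are scaled by the TMM factors. The WT libraries were close together and the KO libraries spread widely below them, with KO replicate 2 nearest to WT. The log2 fold change was -0.51 (SE 0.18, 95% CI -0.94 to -0.09, FDR = 0.0896). Without KO replicate 1 it was -0.38 (FDR = 0.129), and without KO replicate 2 it was -0.75 and passed the threshold (FDR = 0.00558). With DESeq2 the adjusted p was 0.0223.

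Tet1, the Tet gene with the lowest level here, had 32.3, 29.6 and 42.1 CPM in the WT and 14.4, 27.1 and 17.3 CPM in the KO libraries. KO replicates 1 and 3 were well below the WT range and KO replicate 2 just below it, the same order of KO libraries as for Tet3. The log2 fold change was -0.82 (SE 0.25, 95% CI -1.41 to -0.24, FDR = 0.06), which is 0.565 of the WT level. Without KO replicate 1 it was -0.66 (FDR = 0.0803), and without KO replicate 2 it was -1.12 (FDR = 0.013). DESeq2 gave an adjusted p of 0.00803, and edgeR's likelihood ratio and exact tests also called it (FDR = 0.0246 and 0.0263). Tet1 and Tet3 were both lowest in KO replicate 1, the library with the highest sums of the markers of other splenic cells given above. The part of those cells in these levels was not tested. Without that library the remaining KO values of both genes still lay below all WT values. The count table holds 253 to 761 reads of Tet1 per library. In bulk libraries, fewer cells with a transcript and less transcript per cell cannot be told apart, for this gene and for those that follow.

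Tet2, the Tet enzyme often mutated in lymphoid and myeloid malignancy, had 137, 153 and 150 CPM in WT and 148, 180 and 135 CPM in KO. The groups overlapped fully. Its fitted level in KO was 1.05 times that in WT (95% CI 0.866 to 1.28, FDR = 0.706). Its direction turned under library-size scaling, with a log2 fold change of -0.01, and without KO replicate 2, with -0.05.

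Ratios of counts within a library do not depend on the scaling between libraries, and they were compared for the 7 pairs of genes within the Tet, Dnmt and Uhrf families. The log2 ratio of Tet2 to Tet3 was -1.35, -1.20 and -1.15 in WT and -0.37, -0.81 and -0.68 in KO. All KO libraries lay above all WT libraries, by 0.61 on average. The log2 ratio of Tet1 to Tet2 was 0.92 lower in KO on average (-2.10 ± 0.269 in WT and -3.02 ± 0.315 in KO, SD, n = 3), also without overlap. For both pairs an exact two-sided permutation test gave p = 0.1, the smallest that 3 against 3 libraries allow, and p = 0.35 after adjustment over the 7 pairs. Without KO replicate 1 the 2 differences were 0.48 and -0.75. The log2 ratio of Tet1 to Tet3 differed by -0.31, with overlapping groups (exact permutation p = 0.2, adjusted p = 0.35). Per kilobase, Tet3 made up 63.2% to 67.2% of the summed Tet level in WT and 54.1% to 60.3% in KO (58.7% and 60.3% without KO replicate 1), while Tet2 made up 26.1% to 28.4% and 34.1% to 41.5% (34.1% and 36.3% without KO replicate 1). Every KO library thus had a smaller share of Tet3 and a larger share of Tet2 than any WT library. Shares within a family depend on each other, and these rest on the same counts as the fold changes above.

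**Figure D3:**
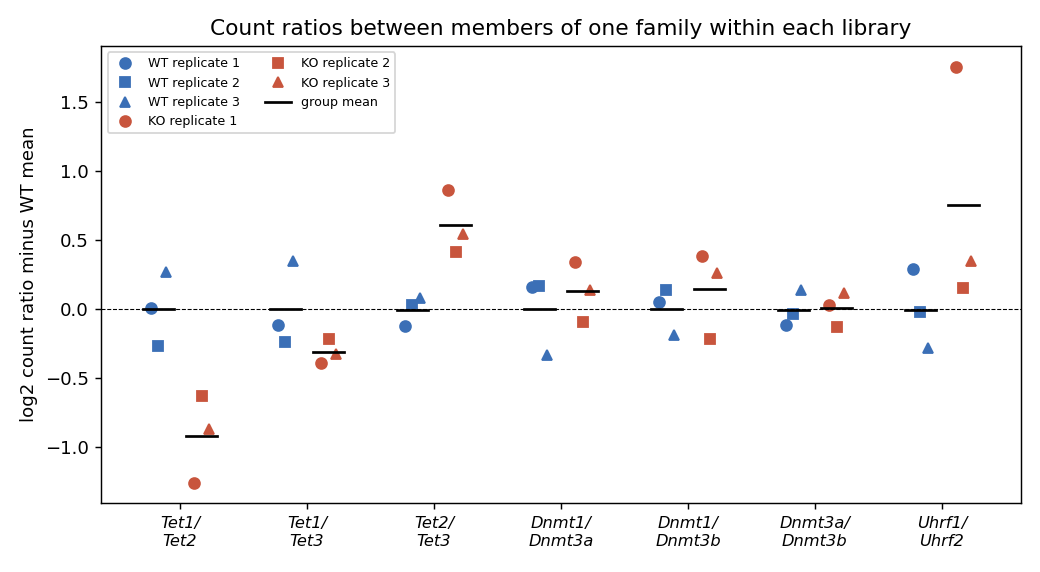
Log2 count ratio of each pair of genes within a family, minus its WT mean, in each library (WT blue, KO red, black lines at group means). Tet1/Tet2 is lower and Tet2/Tet3 higher in all 3 KO libraries, and the 3 Dnmt pairs overlap between groups.

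The methyltransferases overlapped between the groups. Dnmt1, the maintenance enzyme, had 233, 229 and 185 CPM in WT and 253, 193 and 214 CPM in KO. Its fitted level in KO was 1.02 times that in WT (95% CI 0.82 to 1.27, FDR = 0.901). Without KO replicate 1 the log2 fold change turned to -0.10. Dnmt3a, a de novo enzyme, had 227, 222 and 254 CPM in WT and 217, 224 and 212 CPM in KO, again with overlap (0.929 times WT, 95% CI 0.809 to 1.07, FDR = 0.416). Dnmt3b, the other de novo enzyme, lay between 13.4 and 14.5 CPM in WT and between 11.6 and 14.5 CPM in KO (0.927 times WT, 95% CI 0.736 to 1.17, FDR = 0.63). Within libraries, Dnmt3a exceeded Dnmt3b by 4.08 ± 0.13 in log2 counts in WT and by 4.09 ± 0.125 in KO. An antisense gene, Dnmt3aos, shares 133 exon bases with Dnmt3a, and strand was not used in counting, but it held 11 counts or fewer in every library.

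The fold changes of the Uhrf genes had opposite signs, and neither passed the FDR threshold. Uhrf1, which recruits Dnmt1 to hemimethylated DNA and is made mostly in dividing cells, had 18.8, 18.2 and 14.0 CPM in WT and 41.2, 14.7 and 18.6 CPM in KO. KO replicate 1 was far above every other library, and KO replicates 2 and 3 lay within the WT range. The log2 fold change was 0.55 (SE 0.37, 95% CI -0.32 to 1.42, FDR = 0.335) with all libraries and -0.05 (FDR = 0.886) without KO replicate 1. In the same library Mki67, a marker of cycling cells, reached 290 CPM against 92.7 to 114 CPM in the others, and a list of 22 S-phase and proliferation genes summed to 1330 CPM against 732 to 898 CPM. Of these 22 genes, 18 were highest in KO replicate 1, but the share of all tested genes highest in that library was not computed. That library also had the highest sums of the markers of other splenic cells given above, and the part of those cells in the level of Uhrf1 was not tested.

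**Figure D4:**
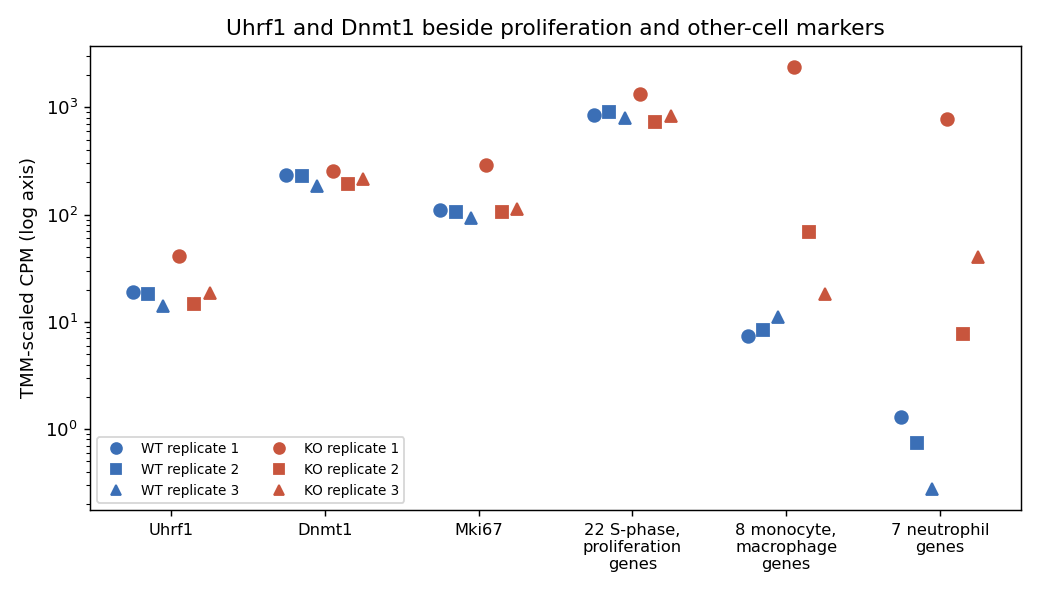
TMM-scaled CPM (log axis) of Uhrf1, Dnmt1 and Mki67, and summed CPM of 3 gene lists, in each library (WT blue, KO red). KO replicate 1 (red circle) is highest in all 6 columns, with 41.2 CPM of Uhrf1 and 2380 CPM of monocyte and macrophage genes.

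Uhrf2, a paralog of Uhrf1 that also binds modified cytosine, had 114, 137 and 126 CPM in WT and 90.5, 97.9 and 108 CPM in KO. The KO libraries all lay below the WT libraries, in a different order from Tet1 and Tet3, with a log2 fold change of -0.35 (SE 0.11, 95% CI -0.60 to -0.10, FDR = 0.0601). DESeq2 called it (adjusted p = 0.0253), as did the QLF test under library-size scaling (FDR = 0.0297). Fits without 1 library gave log2 fold changes from -0.44 to -0.28, with -0.30 (FDR = 0.101) without KO replicate 1, and none of them called it. Over all genes tested, such fits called between 5.98% (without WT replicate 2) and 20.4% (without KO replicate 2), against 18.8% with all libraries.

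Mbd2, the reader among the 9 genes and the one of them with the highest level per kilobase, had 230, 211 and 224 CPM in WT and 260, 269 and 258 CPM in KO. Both groups were tight and did not overlap. The log2 fold change was 0.24 (SE 0.08, 95% CI 0.06 to 0.42, FDR = 0.0692), a 1.18-fold higher level. Fits without 1 library gave values from 0.21 to 0.25, with FDR between 0.0812 and 0.251. DESeq2 called it (adjusted p = 0.024).

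**Figure D5:**
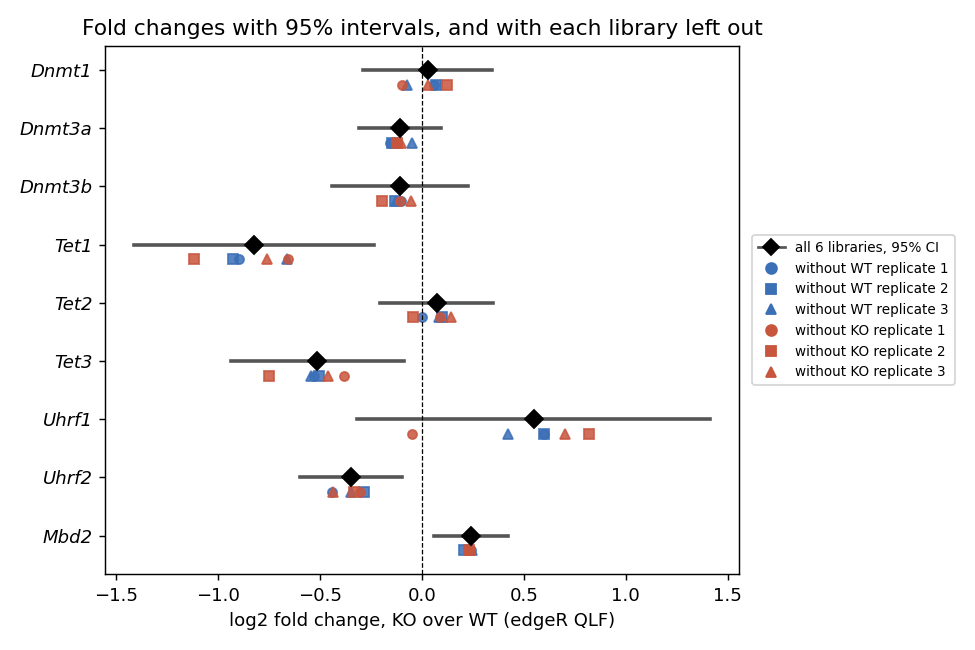
Log2 fold changes (KO over WT) of the 9 genes in the edgeR QLF fit, with black diamonds and bars for all 6 libraries and their 95% intervals, and coloured symbols below for the fits without 1 library. The intervals of Tet1, Tet3, Uhrf2 and Mbd2 do not reach 0 and the other 5 do, and the value of Uhrf1 moves to -0.05 without KO replicate 1.

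Other genes of the pathway were taken from a list of 35. Of these, 30 were tested, 3 were called higher and 1 lower in KO, and 26 were not called. That is 13.3% of those tested, beside 18.8% of all genes, with a median log2 fold change of 0.00 over the list. By direction, 11.6% of all tested genes were called higher and 7.27% lower. Of the 9 tested genes that supply the methyl donor or 2-oxoglutarate, 0 were called in the QLF test, 3 had an unadjusted p under 0.05 and 2 were called by DESeq2. Of the 6 tested partners of the Dnmt enzymes, 0 were called in the QLF test, 1 had an unadjusted p under 0.05 and 1 was called by DESeq2. Among these partners, Cdca7, which works with the remodeler Hells in keeping DNA methylated, had 22.7 to 24.1 CPM in WT and 15.2 to 20.0 CPM in KO (log2 fold change -0.41, FDR = 0.0701).

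Of the 3 genes called higher, 2 were from the demethylation and repair genes. Gadd45g, a stress-response gene linked to active demethylation, had 9.98, 15.8 and 16.0 CPM in WT and 68.6, 54.7 and 57.1 CPM in KO. Every KO library was more than 3 times the highest WT library, and the fitted rise was 4.30-fold (log2 fold change 2.10, SE 0.20, FDR = 0.00129). Smug1, a uracil DNA glycosylase of base excision repair, rose 1.89-fold, from 14.4 ± 2.45 to 27.1 ± 3.33 CPM (SD, n = 3 per group, FDR = 0.0109), and was not called without WT replicate 2 or without WT replicate 3. Those fits called 5.98% and 6.85% of all genes tested, against 18.8% with all libraries. Gadd45a and Gadd45b overlapped between the groups. Gadd45b ranged from 29.6 to 150 CPM within WT alone. Tdg, the glycosylase that removes oxidised methylcytosine, held at most 1 count in any library and was not tested, so its level is not known from this table.

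Of the 8 methyl-CpG readers and related CpG-binding genes on the list, all were tested. Mbd1, a methyl-CpG-binding repressor, was called higher at 1.28-fold (90.4 ± 4.06 CPM in WT and 115 ± 11.5 CPM in KO, FDR = 0.0443). This call was lost in 10 of 15 other settings, including 5 of the 6 fits without 1 library. Zbtb4, a zinc-finger protein that binds methylated DNA, was called lower (170 ± 9.81 and 126 ± 13.1 CPM, log2 fold change -0.42, FDR = 0.0278), and not in the 4 fits without WT replicate 1, WT replicate 2, WT replicate 3 or KO replicate 2. Calls over all genes tested fell from 18.8% to 8.87%, 5.98% and 6.85% without WT replicate 1, 2 and 3. Without KO replicate 2 they were 20.4%. Mbd4, a glycosylase that reads methylated CpG, had 11.5 to 13.5 CPM in WT and 9.01 to 10.3 CPM in KO without overlap (FDR = 0.107). Mbd3 had 78.4 to 86.1 CPM in WT and 89.2 to 100 CPM in KO, also without overlap (FDR = 0.175). Of all tested genes, 18.8% had all KO libraries below WT and 22.2% had them above. Mbd3, Zbtb33, Zbtb38 and Cxxc1 were not called, with log2 fold changes between -0.31 and 0.18. Zbtb38 (-0.31, FDR = 0.109) was called under library-size scaling and without KO replicate 2.

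Among 22 S-phase and proliferation genes, all tested, Ccne1 was called higher (1.60-fold, FDR = 0.0241) and Mcm4 lower (log2 fold change -0.47, FDR = 0.0255), which is 9.09% of the list beside 18.8% of all genes tested. The list's median log2 fold change was 0.39 with all libraries and -0.06 without KO replicate 1, in which 18 of the 22 genes were highest. Ccne1 was not called without WT replicate 1, 2 or 3, and Mcm4 not without WT replicate 2 or 3 or KO replicate 3. Without WT replicate 1, 2 and 3 the share of all genes called was 8.87%, 5.98% and 6.85%, and without KO replicate 3 it was 13.2%. Without KO replicate 1, 2 of the 21 genes that were still tested were called higher and 2 lower. That is 19% of the list beside 17.3% of all genes in that fit. Among 6 genes known as sites of Treg-specific demethylation, Il2ra (3.41-fold, FDR = 0.00088) and Tnfrsf18 (1.76-fold, FDR = 0.00877) were called higher, Tnfrsf18 not so without WT replicate 2. That is 33.3% of the list beside 11.6% of all genes tested that were called higher. DESeq2 called 3 of the 6 higher, beside 14.3% of all genes. Foxp3 had 536, 595 and 566 CPM in WT and 642, 749 and 677 CPM in KO, higher without overlap as were 22.2% of tested genes, with a log2 fold change of 0.28 (FDR = 0.083). Ctla4, Ikzf2 and Ikzf4 overlapped between the groups. DNA methylation itself was not measured.

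For the 3 members with the smallest p, the genes with the most similar levels over the 6 libraries were found by Pearson correlation of log2(CPM + 0.5), as a description. For Tet1 these were Dgkz, Bcl9l, Hspbap1, Kmt2e and N4bp2 (r between 0.985 and 0.996). Those nearest to Uhrf2 included Zw10, Ice2, Rxrb and Zbtb11 (r between 0.984 and 0.994), and those nearest to Mbd2 were Itpa, Tmem131, Tmem134, Ndufv3 and Palm3 (r between 0.996 and 0.999). Each search covered 11658 genes over 6 points that share libraries and fall into 2 groups.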

How the data were processed

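Raw read counts per gene were deposited for 6 libraries. According to the methods, the authors aligned single-end reads with HISAT to mm10 and counted them with featureCounts without regard to strand, without normalization. Tool versions are not given in the sources used here.

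After a filter on low values (CPM above 1 in 3 or more libraries), edgeR 4.0.16 in R 4.3.3 was run with TMM normalization and the QLF test, no covariate, Benjamini-Hochberg adjustment and an FDR threshold of 0.05. Filter, normalization and test follow the methods of the study, which also used the likelihood ratio and exact tests. For its pathway analysis the study kept genes that passed the FDR threshold in all 3 tests. Calls in the main fit here rest on the QLF test alone, so the shares of genes called are not those of the study. Standard errors were derived from the fold change and the F statistic. DESeq2 1.42.0 was an alternative, as were other normalizations, filters and tests, a replicate block and leaving out each library. Levels per kilobase used GENCODE vM21 exons. The fit was tested on simulated counts. A count at a floor of 3 equals 0.123 to 0.227 CPM. Replicates are mice.

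The members and lists were chosen with earlier results of these data known. The family ratios, the second gene length, and the levels and list medians without KO replicate 1 were added after seeing the counts. Named genes are all members, up to 8 called genes per list by p, all reported readers, and the 5 genes most similar to each of the 3 members with the smallest p. Other uncalled genes shown beside them, such as Cdca7, Gadd45b, Foxp3, Mki67, Kcnq1ot1 and Tuba3a, were picked after their values were seen. The sequence of the match in Mbd2 and a few individual genes are left unreported, and list counts include those genes.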

Additional observations from a re-analysis of the deposited data

How the results depend on the processing

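Of the 81 member fold changes computed under other normalizations, filters and tests, 70 kept their direction and side of the threshold. Members called lower numbered 3 under library-size scaling, 3 with DESeq2, 1 with the likelihood ratio test and 1 with the exact test, and members called higher numbered 1 with DESeq2. Of all genes tested, library-size scaling called 19.4%, DESeq2 24.6%, the likelihood ratio test 19.4% and the exact test 18.9%, in either direction. Tet1 was called under library-size scaling (-0.906), DESeq2 (-0.835), the likelihood ratio test (-0.824) and the exact test (-0.824). Tet3 was called under library-size scaling (-0.596) and DESeq2 (-0.524), Uhrf2 under both (-0.424 and -0.358) and Mbd2 with DESeq2 (0.233). Library-size scaling reversed Dnmt1 (-0.0482) and Tet2 (-0.00709). It also moved lower calls from 38.6% to 53% of all calls. The TMM factors that it leaves out were 1.016 to 1.049 in WT and 0.9527 to 0.9869 in KO. Without them the median shift of the log2 fold changes over all genes was -0.0775. Why the factors differ between the groups was not tested.

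Without 1 library, log2 fold changes ranged from -1.12 to -0.66 for Tet1, -0.75 to -0.38 for Tet3, -0.0995 to 0.122 for Dnmt1, -0.0456 to 0.142 for Tet2, -0.0479 to 0.822 for Uhrf1, -0.441 to -0.284 for Uhrf2 and 0.206 to 0.246 for Mbd2. Dnmt1 reversed without WT replicate 3 (-0.0725) and KO replicate 1 (-0.0995), Tet2 without KO replicate 2 (-0.0456) and Uhrf1 without KO replicate 1 (-0.0479). Members called lower ranged from 0 to 2, other pathway genes from 1 to 3 higher and 0 to 1 lower, S-phase genes from 0 to 3 higher and 0 to 2 lower, Treg signature genes from 1 to 2 higher, and imprinted genes from 1 to 2 higher and 1 to 3 lower. Of all genes tested, 8.87%, 5.98% and 6.85% were called without WT replicate 1, 2 and 3. The shares without KO replicate 1, 2 and 3 were 17.3%, 20.4% and 13.2%.

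Other pathway genes called lower numbered 2 under library-size scaling, 3 with DESeq2, 2 without the CPM filter and 2 with filterByExpr. S-phase genes called higher numbered 4 with DESeq2, 3 with the likelihood ratio and 3 with the exact test, and 0 without the CPM filter. Imprinted genes called higher numbered 1 under library-size scaling, without the CPM filter, with the likelihood ratio test, with the exact test and with all 3 edgeR tests required. Of all genes tested, 10.1% were called without the CPM filter and 18.3% with filterByExpr, beside 18.8% in the main fit.

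The labels give both groups replicate numbers 1 to 3 and no reason for pairing. Deviations of same-numbered libraries correlated at 0.0804, -0.0056 and -0.195, so the libraries were not treated as pairs. With the replicate number as a block, 0 members were called, 0 S-phase genes higher and 0 lower, and 1 imprinted gene higher. That fit called 13.8% of all genes tested. Each member had at least 169 counts in every library.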

Other observations

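Imprinted genes, whose expression from 1 parental allele depends on DNA methylation, were read as a separate list of 25. Of these 14 were tested, 2 were called higher and 2 lower in KO, 28.6% of those tested beside 18.8% of all genes. Without KO replicate 1, 1 was called higher and 2 lower, 21.4% beside 17.3% of all genes in that fit. Cdkn1c, a cyclin-dependent kinase inhibitor, had 3.08, 2.21 and 2.82 CPM in WT and 19.5, 39.0 and 33.9 CPM in KO, a rise of 11.4-fold (log2 fold change 3.51, SE 0.30, FDR = 0.000996). Kcnq1ot1, the noncoding transcript of the same imprinted cluster, averaged 57.4 ± 12.5 CPM in the WT and 58.8 ± 8.51 CPM in the KO libraries (SD, n = 3, edgeR FDR = 0.908). Peg13, a paternally expressed noncoding gene within an intron of Trappc9, had 102, 98.3 and 100 CPM in WT and 28.8, 29.8 and 34.8 CPM in KO (log2 fold change -1.69, SE 0.10, FDR = 0.000393). Trappc9 itself was called higher at 1.24-fold (FDR = 0.0372), a call lost in 10 of 15 other settings. Strand was not used in counting, so reads from these overlapping genes are not fully separable. Zrsr1, expressed from the paternal allele, was called lower (log2 fold change -1.26, SE 0.28, FDR = 0.0234), and was not called without WT replicate 2, WT replicate 3 or KO replicate 3. Cdkn1c and Peg13 passed the threshold in all 15 other settings. Allelic expression was not analysed here.

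A list of 14 germline genes that promoter methylation keeps silent in somatic cells was nearly absent in both groups. Tuba3a alone was tested, with 3.94 to 5.42 CPM in WT and 3.28 to 4.39 CPM in KO, and was not called in edgeR's QLF test (FDR = 0.54, unadjusted p = 0.368) or by DESeq2. The other 13 genes stayed below the CPM filter, with at most 9 counts in any library.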
